A study of Mus musculus with 3 samples.

Results

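The genes of the mitochondrial respiratory chain were followed across 4 classes of sorted mouse retinal cells. They were taken by symbol from the raw count table: every gene whose name starts with mt-Nd, mt-Co, mt-Cytb, mt-Atp, Nduf, Uqcr, Atp5 or Sdh, or with the digit and letter of a Cox4 to Cox8 subunit. The rule gave 107 of the 18478 genes, of which 13 are encoded in mitochondrial DNA and carry the prefix mt-, and 94 are nuclear. All cells came from retinas of adult mice that carried 1 copy each of 3 introduced alleles: Yap5SA+/tg, an activated form of the Hippo pathway effector YAP, R26R-tdTomato+/tg, a red reporter, and Glast-CreERT2+/tg, which switches both on after tamoxifen in cells with Glast promoter activity. Injury was by N-methyl-D-aspartate (NMDA), a toxin to retinal neurons, and 2 days later the tdTomato+ cells, labelled as Müller glia, were sorted and sequenced in 3 runs of the 10X Genomics Chromium 3′ v2 assay. There was 1 group and no uninjured or YAP-normal control, and the labels do not say whether the runs came from separate animals. The p-values below thus measure only how far the differences between classes varied from run to run, and that spread may be technical.

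The respiratory chain consists of complexes I to IV, which pass electrons from NADH and succinate to oxygen, and of complex V, the ATP synthase, which uses the resulting proton gradient to make ATP. Complexes I, III, IV and V each combine a core of subunits encoded in mitochondrial DNA with many nuclear-encoded subunits that are imported, while complex II is entirely nuclear. Müller glia span the retina, support its neurons and are known for a strongly glycolytic metabolism.

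The cells were parted by their RNA into Igfbp2-high cells, with at least 5 UMIs (unique molecules) of Igfbp2 per 10000, and Igfbp2-low cells, with under 1 per 10000. Each was parted again into cycling cells, with at least 2 UMIs in the sum of Top2a, Mki67, Cdk1 and Ccnb1, and non-cycling cells. Igfbp2 encodes a secreted binder of insulin-like growth factors. In runs 1, 2 and 3 there were 1498, 1876 and 1587 Igfbp2-high cycling cells, 613, 476 and 470 Igfbp2-high non-cycling cells, 93, 105 and 88 Igfbp2-low cycling cells, and 4357, 5186 and 5225 Igfbp2-low non-cycling cells. The median depth was 20986 to 23816 UMIs per cell in Igfbp2-high cycling cells, 13949 to 16082 in Igfbp2-high non-cycling cells, 11767 to 14594 in Igfbp2-low cycling cells and 8489 to 10361 in Igfbp2-low non-cycling cells, so depth moved with both divisions. All 15 of 15 Müller glia markers were at 1 CPM (UMIs scaled to a common library total) or more in each class, and their summed level was 11460 to 13440 CPM in Igfbp2-high cycling, 17460 to 20430 in Igfbp2-high non-cycling, 19150 to 24480 in Igfbp2-low cycling and 34910 to 41450 in Igfbp2-low non-cycling cells. Other cell types moved with the classes as well. Rod markers summed to 576 to 740 CPM and 647 to 966 CPM in Igfbp2-high cycling and non-cycling cells, against 799 to 1374 and 1440 to 1687 CPM in the matching Igfbp2-low cells. Microglial markers reached 5194 CPM in Igfbp2-low cycling cells of run 1, with all 10 of 10 markers at 1 CPM or more, and astrocyte markers summed to 1173 to 1231 CPM in Igfbp2-high non-cycling cells, against 793 to 1136 CPM in Igfbp2-low non-cycling cells. Igfbp2-high cycling cells had the lowest astrocyte level, 88.6 to 131 CPM. All 7 astrocyte markers were at 1 CPM or more in Igfbp2-high non-cycling cells, and 5 of them in Igfbp2-low non-cycling cells. With cells that held markers of other types left out, astrocyte markers summed to 289 to 382 CPM in Igfbp2-high non-cycling cells. In Igfbp2-low non-cycling cells they then summed to 786 to 1143 CPM, so the order of these classes reversed. Pericyte markers were at 89.9 to 122.8 CPM in Igfbp2-high cycling, 313 to 539 CPM in Igfbp2-high non-cycling and 26.7 to 54.3 CPM in Igfbp2-low non-cycling cells. The part of depth and of these cell types in the results was not tested, but values without such cells, or within one range of depth, are given where they differ.

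The mitochondrially encoded genes took a smaller share of the RNA in Igfbp2-high than in Igfbp2-low cells and in cycling than in non-cycling cells, while the share of the nuclear genes differed little. In runs 1, 2 and 3 the 13 mt- genes made up 3.17, 2.98 and 3.40% of UMIs in Igfbp2-high cycling cells, 4.09, 4.09 and 4.77% in Igfbp2-high non-cycling cells, 3.85, 4.05 and 4.51% in Igfbp2-low cycling cells, and 5.08, 4.93 and 5.93% in Igfbp2-low non-cycling cells. Igfbp2-high cycling cells were lowest and Igfbp2-low non-cycling cells highest in each run, and these classes did not overlap, while the middle classes overlapped each other. Malat1 is a long RNA held in the nucleus whose level is read as a sign of RNA and cell quality. It was at 13763 to 16515 CPM in Igfbp2-high cycling, 25150 to 30436 in Igfbp2-high non-cycling, 20895 to 28075 in Igfbp2-low cycling and 40508 to 44702 in Igfbp2-low non-cycling cells. It moved with the classes as the mt- share did, and its part was not tested. The 94 nuclear genes together made up 3.18 ± 0.0258%, 3.38 ± 0.0106%, 3.50 ± 0.178% and 3.45 ± 0.0899% of UMIs in the same 4 classes (mean ± SD, n = 3 runs). In non-cycling cells the mt- share of Igfbp2-high cells was 0.813 ± 0.0145 times that of Igfbp2-low cells of the same run, and the nuclear share 0.981 ± 0.0229 times. In Igfbp2-high cells the mt- share of cycling cells was 0.738 ± 0.0328 times that of non-cycling cells, and the nuclear share 0.94 ± 0.0047 times. The ratio of mt- to nuclear respiratory chain UMIs was accordingly 1.00 ± 0.0673 in Igfbp2-high cycling, 1.28 ± 0.115 in Igfbp2-high non-cycling, 1.18 ± 0.0368 in Igfbp2-low cycling and 1.54 ± 0.149 in Igfbp2-low non-cycling cells.

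Counted per cell rather than per UMI, the ends of the order changed places. Igfbp2-high cycling cells held 708 ± 24.6 mt- UMIs each, Igfbp2-high non-cycling cells 646 ± 22.8, Igfbp2-low cycling cells 630 ± 63.2 and Igfbp2-low non-cycling cells 517 ± 28.5 (mean ± SD, n = 3 runs). For the nuclear genes the gap was wider, with 709 ± 41.9, 509 ± 38.2, 534 ± 40.8 and 337 ± 38.4 UMIs per cell. Igfbp2-high cycling cells thus held 1.37 ± 0.0516 times the mt- UMIs and 2.11 ± 0.115 times the nuclear respiratory chain UMIs of an Igfbp2-low non-cycling cell, at 0.600 ± 0.026 times its mt- share. Their median depth was 2.40 ± 0.128 times that of Igfbp2-low non-cycling cells, and the cycling rule counts UMIs without scaling for depth. Within cells of 6000 to 14000 UMIs the mt- share averaged 3.81% in Igfbp2-high cycling, 4.89% in Igfbp2-high non-cycling, 4.92% in Igfbp2-low cycling and 5.40% in Igfbp2-low non-cycling cells, a smaller Igfbp2 difference in non-cycling cells than over all depths. Every cell was also thinned to 3500 UMIs, with its class kept from full depth. Random thinning leaves the expected share of a cell unchanged, so it cannot show the part of depth. The median Igfbp2-high non-cycling cell then held 137, 142 and 162 mt- UMIs in runs 1, 2 and 3, against 181, 173 and 207 in Igfbp2-low non-cycling cells. More RNA molecules of other genes and fewer of these genes cannot be told apart in a lower share.

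**Figure D1:**
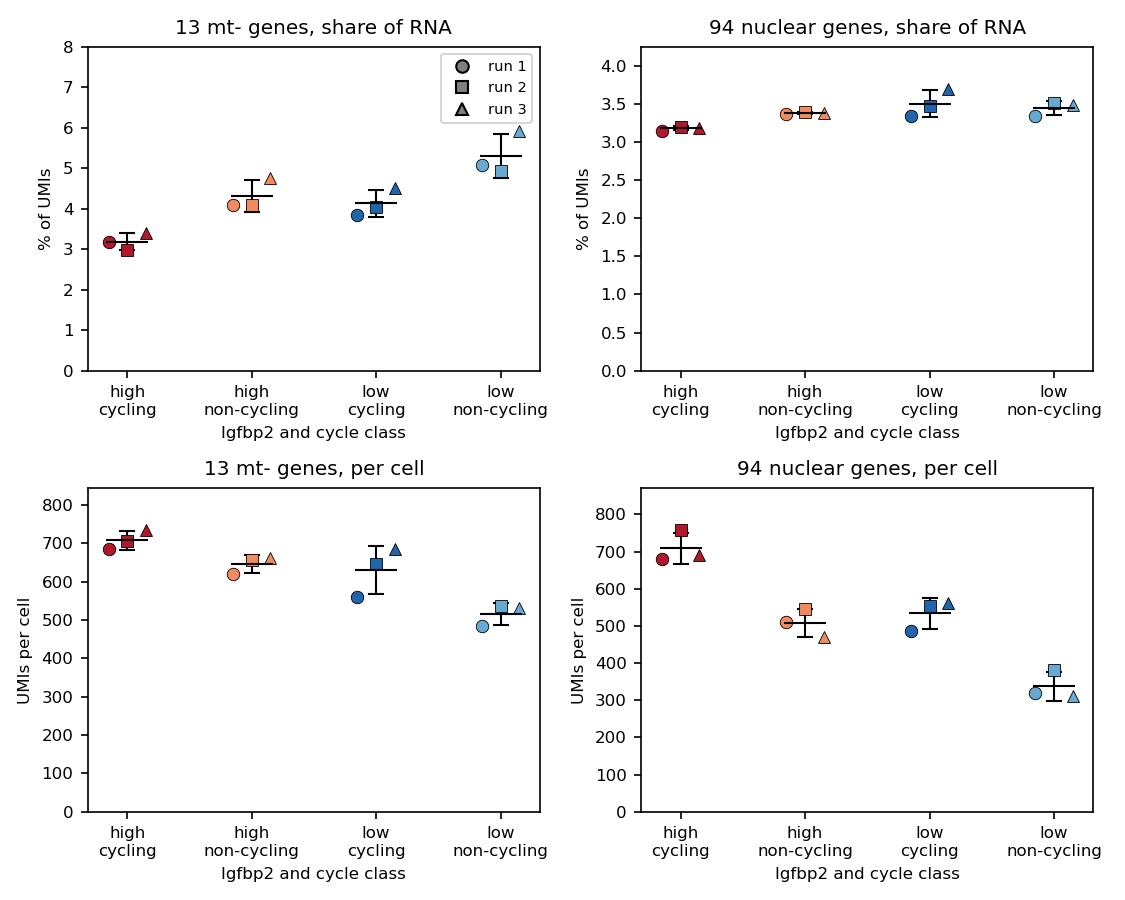
Share of UMIs (upper panels) and UMIs per cell (lower panels) of the 13 mt- genes and the 94 nuclear genes in the 4 classes; each point is 1 run, and the bars are the mean and SD over 3 runs. The mt- share is lowest in Igfbp2-high cycling cells (2.98 to 3.40%) and highest in Igfbp2-low non-cycling cells (4.93 to 5.93%), while Igfbp2-high cycling cells have the most UMIs of both kinds per cell.

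Gene by gene, the UMIs of a class were added up within each run and compared with edgeR's quasi-likelihood test, with the run as a block and Benjamini-Hochberg adjustment over all 14353 genes tested; levels below are CPM scaled by TMM (trimmed mean of M-values). In non-cycling cells, 0 of 13 mt- genes rose and 5 fell in Igfbp2-high relative to Igfbp2-low cells. The 5 were 38.5% of the mt- genes, near the 32.3% of all genes tested that were called lower. Of all genes, 30.1% were called higher. An unadjusted p under 0.05 added no mt- gene to the higher side, and DESeq2 also called 0 higher. The 5 were all 3 subunits of complex IV, the single subunit of complex III and mt-Atp6 of complex V, and 0 of the 7 complex I genes were called in either direction (0 higher and 0 lower). The median log2 change was -0.14 for the mt- genes and -0.05 for all genes.

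The complex IV core carried the largest of these differences. mt-Co1 (chromosome M, 5328 to 6872, GRCm38), the catalytic subunit of cytochrome c oxidase, was at 3608, 3962 and 4573 CPM in Igfbp2-high non-cycling cells of runs 1, 2 and 3, against 4826, 5249 and 6200 CPM in Igfbp2-low non-cycling cells. The classes did not overlap, and mt-Co1 fell by 0.42 ± 0.06 on the log2 scale (± SE, adjusted p = 2.57e-05). mt-Co2 (chromosome M, 7013 to 7696), which takes up electrons from cytochrome c, was at 2678, 2366 and 2867 CPM against 3805, 3328 and 4098 CPM in the same classes and had a log2 change of -0.51 (adjusted p = 4.85e-06). mt-Co3, the remaining core subunit, was at 4448, 4373 and 5138 CPM against 6110, 5900 and 7106 CPM, a log2 change of -0.45 (adjusted p = 1.22e-05). None of these 3 genes overlapped between the classes. Within cells of 6000 to 14000 UMIs, mt-Co2 and mt-Co3 remained called at smaller log2 changes of -0.33 and -0.25. With every cell thinned to 3500 UMIs, 11 mt- genes were called lower, beside 4221 of 11784 over all genes. The classes were set again after thinning for that fit, so its cells differ. Igfbp2-high non-cycling cells then numbered 1133, 982 and 917 in runs 1, 2 and 3, and Igfbp2-high cycling cells 1000, 1377 and 1129. mt-Cytb, cytochrome b of complex III, was at 5545, 5819 and 6764 CPM in Igfbp2-high cells, against 6469, 6996 and 8438 CPM in Igfbp2-low cells, so the ranges overlapped although it was lower in each run (log2 change -0.27, adjusted p = 0.00134). mt-Atp6, the membrane subunit of ATP synthase that forms the proton path, was at 12219, 11091 and 12925 CPM against 14570, 13872 and 16959 CPM (log2 change -0.32, adjusted p = 0.000458). In contrast, mt-Nd1 of the membrane arm of complex I was at 9326, 9775 and 10419 CPM in Igfbp2-high cells and 8450, 9172 and 10605 CPM in Igfbp2-low cells, with overlapping ranges and a log2 change of 0.07 ± 0.07 (adjusted p = 0.383). The other complex I genes had log2 changes between -0.16 (mt-Nd3, adjusted p = 0.0719) and 0.12 (mt-Nd6, adjusted p = 0.196).

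Between cycling and non-cycling Igfbp2-high cells the mt- genes fell more evenly: 0 of 13 rose and 12 fell, against 25.0% of all genes called higher and 24.2% called lower. No mt- gene reached an unadjusted p under 0.05 on the higher side, and DESeq2 called 0 higher. The median log2 change was -0.39 for the mt- genes and -0.02 for all genes. With cells that held markers of other types left out, astrocyte markers were at 73.4 to 109 CPM in cycling and 289 to 382 CPM in non-cycling cells, pericyte markers at 80.5 to 117 and 119 to 232 CPM, and 12 mt- genes were called lower. mt-Nd4, a proton-pumping subunit of complex I, was at 1790, 1843 and 2074 CPM in cycling cells, against 2536, 2733 and 3153 CPM in non-cycling cells, and had a log2 change of -0.56 (adjusted p = 7.02e-06). mt-Cytb was at 3954, 3916 and 4428 CPM in cycling cells, against 5545, 5819 and 6764 CPM in non-cycling cells, also a log2 change of -0.56 (adjusted p = 3.49e-06). For both genes every cycling value lay under every non-cycling value. mt-Co1, mt-Co2 and mt-Co3 had log2 changes of -0.48, -0.56 and -0.56, and mt-Nd1 and mt-Nd2 the smaller ones of -0.32 and -0.26 (adjusted p = 0.00113 and 0.00555). The exception was mt-Nd6, the only protein gene read from the other strand of mitochondrial DNA. It was at 31.4, 43.3 and 46.9 CPM in cycling cells and 28.1, 44.1 and 47.2 CPM in non-cycling cells, with a log2 change of 0.04 ± 0.08 (adjusted p = 0.715).

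The remaining comparisons both use Igfbp2-low cycling cells, the smallest class. Among cycling cells, 1 mt- gene rose and 6 fell in Igfbp2-high relative to Igfbp2-low cells, where 25.7% of all genes were called higher and 19.7% lower. mt-Co3 had the largest log2 change, -0.60 (adjusted p = 2.11e-06), and mt-Nd4 was called there with -0.33 (adjusted p = 0.000978). The gene that rose was mt-Nd6 (log2 change 0.33 ± 0.12, adjusted p = 0.0354), whose call was lost when cells with markers of other types were left out, and the number of mt- genes called lower was then 10. Among Igfbp2-low cells, 0 mt- genes rose and 10 fell in cycling relative to non-cycling cells, where 16.9% of all genes were called higher and 15.6% lower. mt-Cytb and mt-Co2 each had a log2 change of -0.51 there. Within 6000 to 14000 UMIs 1 mt- gene was called lower in this comparison, where calls over all genes also fell away, to 396 higher and 213 lower of 11253. The median log2 change there was -0.23 for the mt- genes and -0.06 for all genes.

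**Figure D2:**
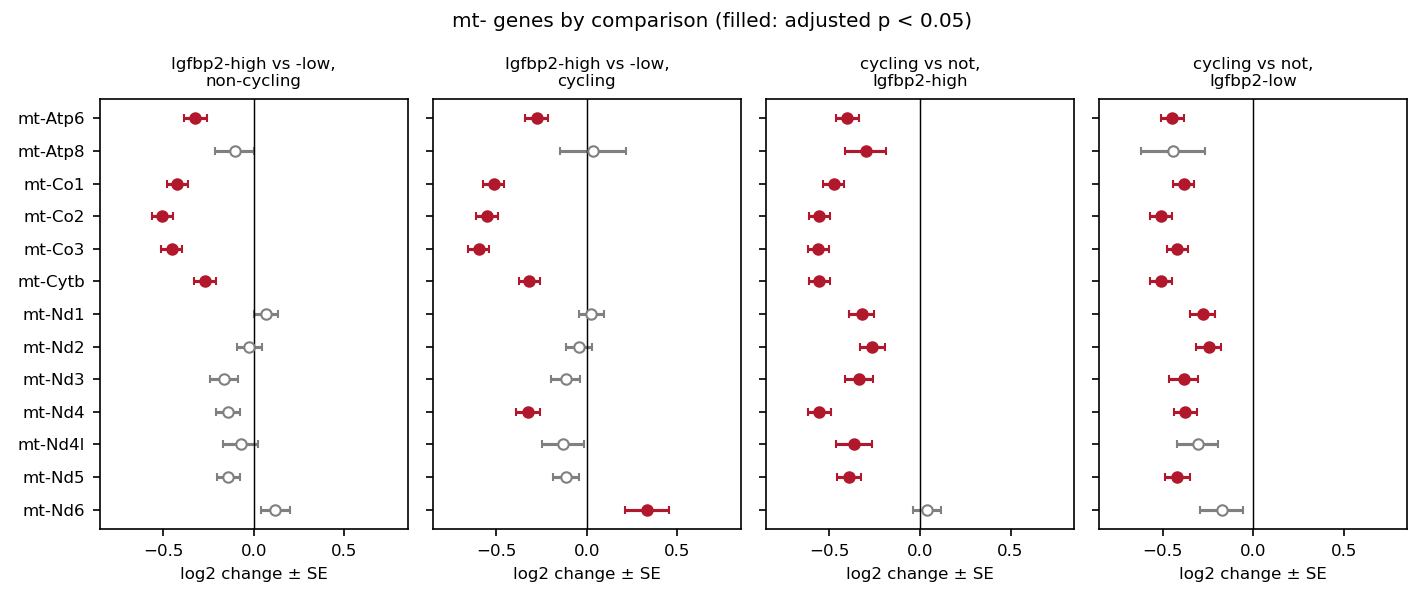
Log2 change with its SE for each mt- gene in the 4 comparisons; filled points passed the adjusted threshold, and negative values are lower in Igfbp2-high or in cycling cells. In non-cycling cells the calls are mt-Co1, mt-Co2, mt-Co3, mt-Cytb and mt-Atp6, whereas 12 of 13 genes are called between cycling and non-cycling Igfbp2-high cells.

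mt-Atp8 and mt-Atp6 lie on one transcript and share 43 bases at chrM:7927-7969 (GRCm38, plus strand), so a read there cannot be given to either gene from its sequence. The shared stretch is shown because mt-Atp6 was called by Igfbp2 in non-cycling cells and mt-Atp8 was not (log2 change -0.11, adjusted p = 0.409), with the mt-Atp6 start codon and the mt-Atp8 stop codon in capitals.
mt-Atp8/mt-Atp6 overlap: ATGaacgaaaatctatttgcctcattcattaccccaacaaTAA
mt-Atp8 was at 19.7, 22.9 and 31.3 CPM in Igfbp2-high cycling cells, against 23.6, 30.7 and 36.4 CPM in Igfbp2-high non-cycling cells, with overlapping ranges and a log2 change of -0.30 (adjusted p = 0.0374). The assay tags the 3′ end of transcripts. The mt-Nd4l and mt-Nd4 genes share 7 bases, and mt-Nd5 and mt-Nd6 overlap by 14 bases on opposite strands. Whether the counting used the strand, and how it treated copies of mitochondrial genes in the nuclear genome, is not given in the sources used here.

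The 94 nuclear genes were divided in direction. Of the 93 that could be tested, 24 rose and 24 fell in Igfbp2-high relative to Igfbp2-low non-cycling cells, 25.8% each way, near or under the shares of all genes called higher (30.1%) and lower (32.3%). Their median log2 change was 0.04. Between cycling and non-cycling Igfbp2-high cells 20 rose and 27 fell, with a median of -0.07, beside 25.0% and 24.2% of all genes. The counts moved with the cells taken: the 24 that rose became 15 within 6000 to 14000 UMIs and 13 without rod-rich cells, and the 20 became 10 and 18. Over all genes, 2913 of 11253 rose by Igfbp2 in that window and 3767 of 13718 without rod-rich cells. By cycling, 2106 of 11253 and 3167 of 13718 rose. The gene not tested, Cox7b2, had 33 UMIs in all cells kept.

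**Figure D3:**
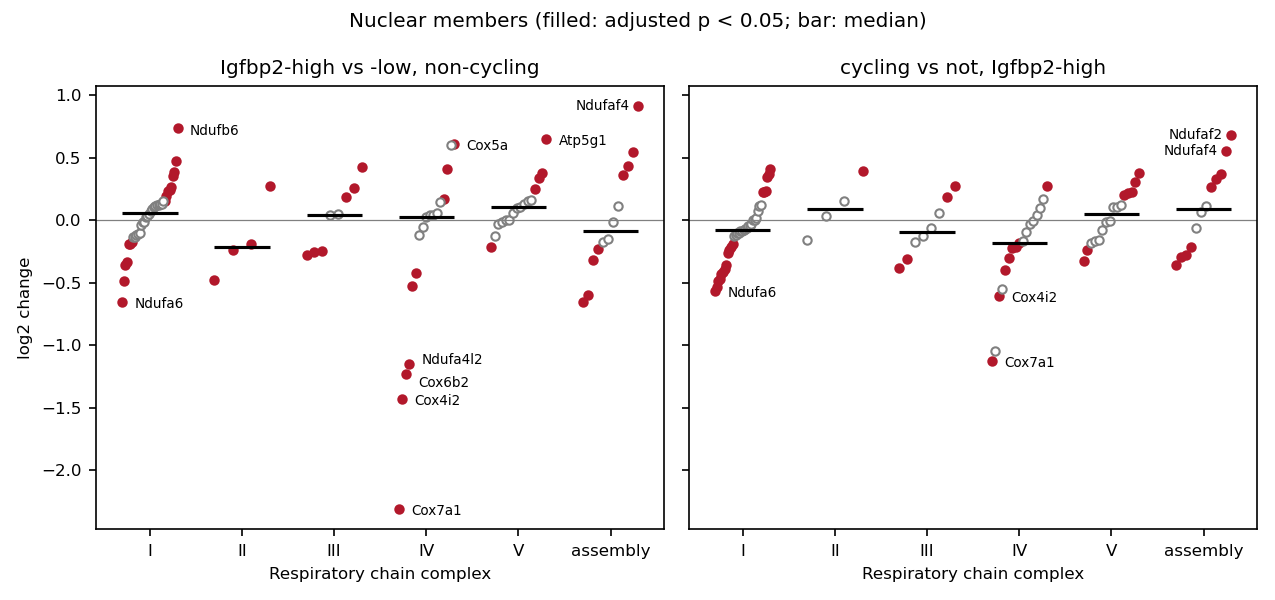
Log2 changes of the nuclear members by complex in 2 comparisons, Igfbp2-high against Igfbp2-low non-cycling cells (left) and cycling against non-cycling Igfbp2-high cells (right); filled points passed the adjusted threshold and bars are medians. Each complex has members on both sides of 0, and Cox7a1 is the lowest point in both panels (log2 change -2.31 and -1.13).

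Of 36 nuclear complex I genes, 9 rose and 7 fell in Igfbp2-high non-cycling cells, and 6 rose and 12 fell in cycling relative to non-cycling Igfbp2-high cells. By Igfbp2 these were 25% and 19.4%, under the 30.1% and 32.3% of all genes. By cycling they were 16.7% and 33.3%, beside 25.0% and 24.2% of all genes. Ndufa6, an accessory subunit that binds the mitochondrial acyl carrier protein, was lower both ways. It was at 191, 189 and 197 CPM in Igfbp2-high cycling cells, 273, 289 and 294 CPM in Igfbp2-high non-cycling cells, 299, 340 and 303 CPM in Igfbp2-low cycling cells and 429, 434 and 485 CPM in Igfbp2-low non-cycling cells. Its values did not overlap between the classes of any comparison, with log2 changes of -0.65 ± 0.07 by Igfbp2 in non-cycling cells (adjusted p = 1.13e-06) and -0.57 by cycling in Igfbp2-high cells (adjusted p = 8.06e-06). The acyl carrier protein itself, Ndufab1, was the opposite: 359, 378 and 390 CPM in Igfbp2-high cycling, 283, 285 and 278 CPM in Igfbp2-high non-cycling, 275, 274 and 327 CPM in Igfbp2-low cycling and 190.2, 209 and 212 CPM in Igfbp2-low non-cycling cells. It rose by Igfbp2 (log2 change 0.47, adjusted p = 3.03e-05) and by cycling (0.41, adjusted p = 0.000154). Ndufb6, an accessory subunit of the membrane arm, was called by Igfbp2 but not by cycling in Igfbp2-high cells: it was at 397, 359 and 321 CPM in Igfbp2-high non-cycling cells, against 216, 228 and 203 CPM in Igfbp2-low non-cycling cells (log2 change 0.73 ± 0.09, adjusted p = 8.2e-06), and its change with cycling in Igfbp2-high cells was 0.00 (adjusted p = 0.997). Ndufv3, an accessory subunit of the NADH-binding module, was at 158, 156 and 149 CPM in Igfbp2-high cycling cells, against 223, 228 and 220 CPM in Igfbp2-high non-cycling cells (log2 change -0.53, adjusted p = 8.57e-06). Ndufs1, a core subunit of the electron-carrying arm, rose by Igfbp2 and by cycling (0.26 and 0.34).

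All 4 subunits of complex II, succinate dehydrogenase, were called by Igfbp2 in non-cycling cells, 1 higher and 3 lower. The comparison called 30.1% of all genes higher and 32.3% lower. Sdha, the flavoprotein that oxidises succinate, was at 145, 127 and 113 CPM in Igfbp2-high non-cycling cells, against 203, 180.1 and 155 CPM in Igfbp2-low non-cycling cells, without overlap (log2 change -0.48 ± 0.07, adjusted p = 2.13e-05). Sdhb, the iron-sulfur subunit, and Sdhc, a membrane anchor, fell by 0.24 and 0.19. Sdhd, the other anchor, was at 116, 115 and 97.7 CPM in Igfbp2-high cells, against 91.8, 93.7 and 86.8 CPM in Igfbp2-low cells (log2 change 0.27, adjusted p = 0.00311), and this call was lost within 6000 to 14000 UMIs and without rod-rich cells. With cycling in Igfbp2-high cells only Sdhd was called, at 144, 145 and 143 CPM in cycling cells (log2 change 0.39, adjusted p = 0.000245).

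In complex III, 3 of 8 nuclear genes rose and 3 fell by Igfbp2 in non-cycling cells, and 2 rose and 2 fell by cycling in Igfbp2-high cells. These counts were near the shares of all genes, 30.1% higher and 32.3% lower by Igfbp2 and 25.0% and 24.2% by cycling. Uqcrq, a small subunit beside cytochrome b, was at 796, 797 and 875 CPM in Igfbp2-high non-cycling cells, against 569, 612 and 655 CPM in Igfbp2-low non-cycling cells (log2 change 0.43 ± 0.07, adjusted p = 9.37e-05). Uqcrh, the hinge subunit between cytochromes c1 and c, was at 618, 695 and 684 CPM against 726, 819 and 881 CPM in these classes (log2 change -0.28, adjusted p = 0.00128). Uqcr11, another small subunit, was at 568, 596 and 592 CPM in Igfbp2-high cycling cells, against 731, 768 and 793 CPM in Igfbp2-high non-cycling cells (log2 change -0.38, adjusted p = 0.000295). Thus the small subunits of one complex moved in both directions, while the core subunit Uqcrc1 had a log2 change of -0.25 by Igfbp2 and 0.19 by cycling, and the Rieske iron-sulfur protein Uqcrfs1 rose with cycling (0.27).

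Complex IV held the largest changes of all members, in subunits that exist as isoforms. Of 17 nuclear complex IV genes tested, 3 rose and 6 fell by Igfbp2 in non-cycling cells, and 1 rose and 7 fell by cycling in Igfbp2-high cells. By Igfbp2 these were 17.6% and 35.3%, beside 30.1% and 32.3% of all genes. By cycling they were 5.88% and 41.2%, beside 25.0% and 24.2% of all genes. Cox7a1 (chromosome 7, 30184144 to 30186078, GRCm38), the isoform best known from heart and skeletal muscle, was at 2.25, 3.01 and 2.04 CPM in Igfbp2-high cycling cells, 5.53, 4.73 and 5.61 CPM in Igfbp2-high non-cycling cells, 8.41, 12.6 and 15.3 CPM in Igfbp2-low cycling cells and 21.7, 27.8 and 30.8 CPM in Igfbp2-low non-cycling cells. The 4 classes did not overlap. The log2 change was -2.31 ± 0.15 by Igfbp2 in non-cycling cells (adjusted p = 1.55e-08), -2.29 ± 0.29 by Igfbp2 in cycling cells (adjusted p = 2.15e-05) and -1.13 ± 0.20 by cycling in Igfbp2-high cells (adjusted p = 0.000365), the last being -2.16 within 6000 to 14000 UMIs. That window held 3047489, 3118537 and 3109879 UMIs of Igfbp2-high cycling cells in runs 1, 2 and 3. At the low level of Cox7a1 the value of -2.16 thus rests on few UMIs. Cox7a2 (chromosome 9, 79755361 to 79759878), the widely expressed isoform of the same subunit, went the other way: 623, 686 and 662 CPM in Igfbp2-high non-cycling cells, against 450.3, 520.0 and 515 CPM in Igfbp2-low non-cycling cells (log2 change 0.41 ± 0.07, adjusted p = 0.000224). Cox7a2l, a related protein that joins complexes III and IV into supercomplexes, was at 341, 376 and 386 CPM against 453, 483 and 542 CPM in these classes (log2 change -0.42, adjusted p = 4.02e-05).

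The promoters of the Cox7a1 and Cox7a2 genes are shown because the isoforms moved in opposite directions. They are the RefSeq windows from 250 bases before to 50 after the start, at chr7:30183921-30184220 (plus strand) and chr9:79759804-79760103 (minus strand) of GRCm38.p6, 5′ to 3′ on the gene's strand.
Cox7a1: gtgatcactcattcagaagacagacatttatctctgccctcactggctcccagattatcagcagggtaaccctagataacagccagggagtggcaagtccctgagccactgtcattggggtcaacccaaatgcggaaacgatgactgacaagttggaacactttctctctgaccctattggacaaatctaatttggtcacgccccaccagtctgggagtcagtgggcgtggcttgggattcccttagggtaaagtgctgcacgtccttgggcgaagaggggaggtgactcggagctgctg
Cox7a2: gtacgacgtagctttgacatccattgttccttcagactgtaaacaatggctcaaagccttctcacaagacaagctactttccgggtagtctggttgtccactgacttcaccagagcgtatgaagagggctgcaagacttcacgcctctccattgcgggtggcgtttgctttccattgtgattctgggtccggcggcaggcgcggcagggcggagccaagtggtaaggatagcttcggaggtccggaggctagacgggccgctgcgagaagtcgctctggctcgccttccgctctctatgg
Neither window held a match to any of 4 motifs searched on both strands: the NRF1 palindrome (the run of capitals in the Ndufaf4 promoter given further on), CCGGAAG (GABPA), AAGATGG (YY1) and CACGTG (E-box), factors known to bind many genes of the respiratory chain or, for the E-box, Myc and its relatives. None of these motifs contains another. RefSeq promoter entries were matched for 76 of the 94 nuclear members, with 81 windows in all. The NRF1 motif was in 8.64% of these windows, against 0.971% of all 32851 promoter windows. The GABPA motif was in 24.7% against 8.86%, the YY1 motif in 12.3% against 6.34%, and the E-box in 7.41% against 7.15%.

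Cox4i2 (chromosome 2, 152754173 to 152765037), the oxygen-regulated isoform of subunit 4, had the same order of classes as Cox7a1. It was at 39.2, 53.1 and 45.9 CPM in Igfbp2-high cycling, 64.1, 74.1 and 71.2 CPM in Igfbp2-high non-cycling, 93.2, 136.4 and 108.6 CPM in Igfbp2-low cycling and 153, 214 and 202 CPM in Igfbp2-low non-cycling cells, with no overlap between classes. Its log2 change was -1.43 ± 0.07 by Igfbp2 in non-cycling cells (adjusted p = 1.1e-09) and -0.61 ± 0.07 by cycling in Igfbp2-high cells (adjusted p = 1.2e-05). The common isoform Cox4i1 fell as well but less: 1288, 1234 and 1268 CPM in Igfbp2-high non-cycling cells, against 1735, 1801 and 1932 CPM in Igfbp2-low non-cycling cells (log2 change -0.53 ± 0.06, adjusted p = 2.67e-06). Cox6b2, an isoform best known from testis, was at 28.4, 48.9 and 40.0 CPM in Igfbp2-high non-cycling cells, against 67.9, 102 and 106 CPM in Igfbp2-low non-cycling cells (log2 change -1.23 ± 0.07, adjusted p = 4.87e-09), while the common Cox6b1 had a log2 change of -0.12 (adjusted p = 0.0988). Leaving out cells with markers of other types, or rod-rich cells, gave log2 changes by Igfbp2 of -2.26 and -2.54 for Cox7a1, -1.34 and -1.53 for Cox4i2 and -1.24 and -1.30 for Cox6b2.

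Not every isoform set parted. Ndufa4l2, a hypoxia-induced relative of the complex IV subunit Ndufa4, was at 2.32, 1.49 and 0.623 CPM in Igfbp2-high non-cycling cells, against 7.67, 1.55 and 0.842 CPM in Igfbp2-low non-cycling cells. Its call (log2 change -1.15, adjusted p = 0.0195) rested on run 1, without which the change was -0.14. Ndufa4 itself had a log2 change of 0.06 (adjusted p = 0.483). Cox6a2, another muscle isoform, stayed at low levels with no call by Igfbp2 (log2 change 0.60, adjusted p = 0.26), and the common Cox6a1 was not called either (0.04). The remaining common subunits moved little by Igfbp2, with 0.02 for Cox7b and 0.15 for Cox8a. Cox7b fell with cycling, at 391, 458 and 431 CPM in Igfbp2-high cycling cells, against 514, 606 and 571 CPM in Igfbp2-high non-cycling cells (log2 change -0.40, adjusted p = 9.57e-05). Cox5a, an early subunit in the assembly of complex IV that was picked out after its values were seen, was at 533, 477 and 424 CPM in Igfbp2-high non-cycling cells, against 303, 327 and 307 CPM in Igfbp2-low non-cycling cells (log2 change 0.61 ± 0.09, adjusted p = 6.82e-05).

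**Figure D4:**
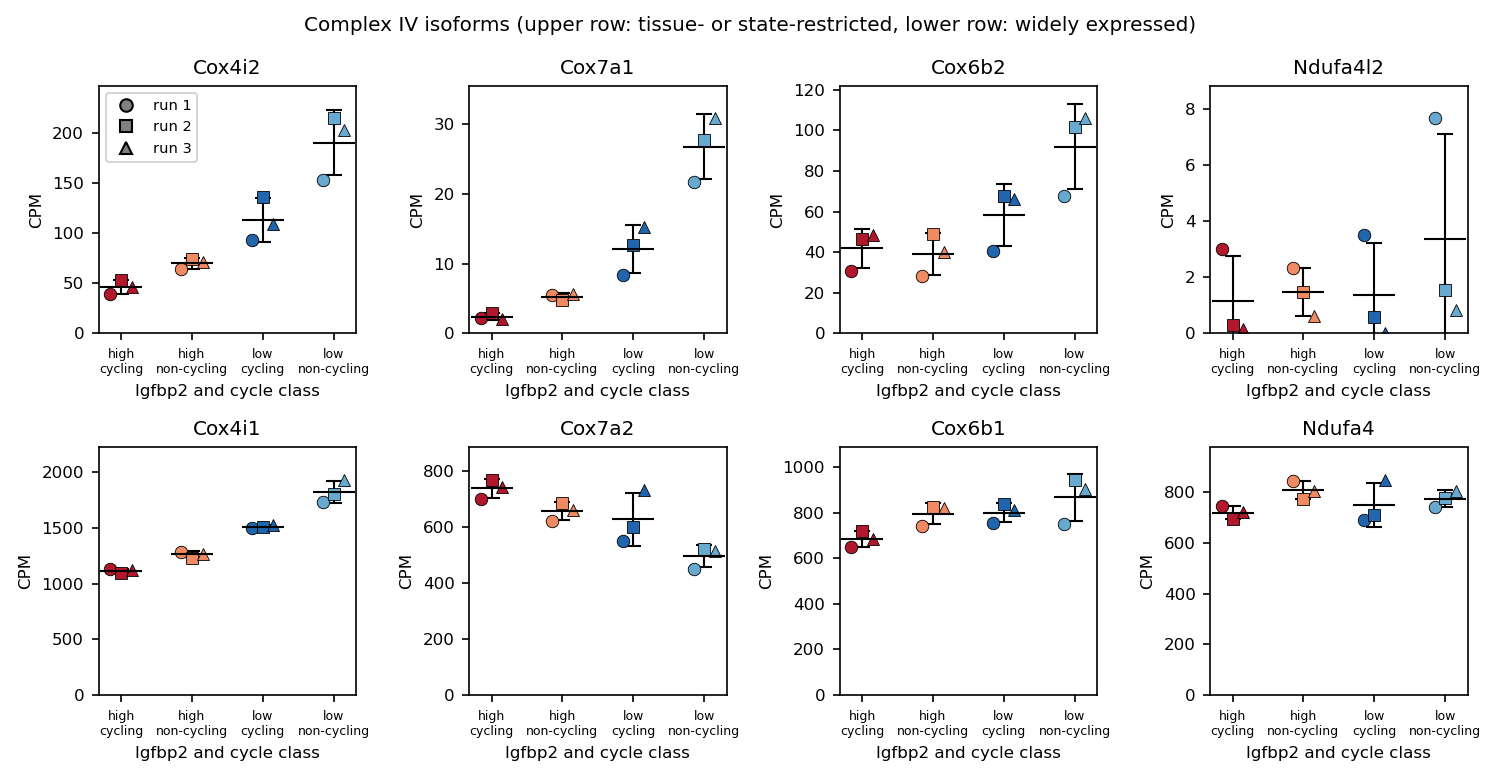
CPM per run of complex IV isoforms in the 4 classes, with mean and SD; the upper row holds the restricted isoforms and the lower row their common counterparts. Cox4i2 and Cox7a1 step up over the 4 classes from left to right without overlap, while Cox7a2 steps down and the highest Ndufa4l2 value of each class belongs to run 1.

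In complex V, 4 of 16 nuclear genes rose and 1 fell by Igfbp2 in non-cycling cells, and 5 rose and 2 fell by cycling in Igfbp2-high cells. By Igfbp2 these were 25% and 6.25%, beside 30.1% and 32.3% of all genes. By cycling they were 31.2% and 12.5%, beside 25.0% and 24.2% of all genes. The c subunit, which forms the rotating ring, is encoded by Atp5g1, Atp5g2 and Atp5g3, which make the same mature protein. Atp5g1 was at 753, 770 and 776 CPM in Igfbp2-high non-cycling cells, against 438, 517 and 510 CPM in Igfbp2-low non-cycling cells, without overlap (log2 change 0.65 ± 0.08, adjusted p = 9.28e-06). Atp5g2 and Atp5g3 had log2 changes of 0.16 (adjusted p = 0.0786) and 0.00 (adjusted p = 0.994) in this comparison. Within Igfbp2-high cells Atp5g1 was at 711, 723 and 738 CPM in cycling cells (log2 change -0.08 against non-cycling cells, adjusted p = 0.427). The Atp5g1 promoter (chr11:96075582-96075881, minus strand, GRCm38.p6) is shown because this gene alone of its set was called by Igfbp2 in non-cycling cells; its E-box is in capitals, and a match is only a description of the letters.
Atp5g1: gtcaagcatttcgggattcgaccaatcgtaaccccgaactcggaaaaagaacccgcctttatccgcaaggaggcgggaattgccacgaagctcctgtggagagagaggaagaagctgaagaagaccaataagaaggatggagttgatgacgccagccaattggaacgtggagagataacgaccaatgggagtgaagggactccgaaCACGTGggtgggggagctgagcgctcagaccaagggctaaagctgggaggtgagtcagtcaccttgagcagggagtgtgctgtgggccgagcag
Atp5b, the catalytic beta subunit, was at 898, 764 and 685 CPM in Igfbp2-high non-cycling cells, against 703, 620 and 496 CPM in Igfbp2-low non-cycling cells, with overlapping ranges across runs but a higher value in each run (log2 change 0.37, adjusted p = 0.000369). Atp5f1 of the peripheral stalk also rose by Igfbp2 and by cycling (0.25 and 0.30), its first call being lost within 6000 to 14000 UMIs. Atp5e, the epsilon subunit of the central stalk, fell with cycling (-0.33, adjusted p = 0.00049).

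The 12 assembly factors caught by the rule, which help build the complexes without staying in them, gave 4 higher and 4 lower by Igfbp2 in non-cycling cells, and 5 higher and 4 lower by cycling in Igfbp2-high cells. By Igfbp2 these were 33.3% each way, near the 30.1% and 32.3% of all genes. By cycling they were 41.7% and 33.3%, beside 25.0% and 24.2% of all genes. Ndufaf4, which helps build complex I, was at 66.1, 68.2 and 68.4 CPM in Igfbp2-high cycling, 47.6, 47.1 and 43.1 CPM in Igfbp2-high non-cycling, 36.4, 39.5 and 35.0 CPM in Igfbp2-low cycling and 22.8, 26.3 and 24.3 CPM in Igfbp2-low non-cycling cells. The 4 classes did not overlap, and their order was the opposite of that of Cox7a1 and Cox4i2. The log2 change was 0.91 ± 0.07 by Igfbp2 in non-cycling cells (adjusted p = 5.76e-08) and 0.55 by cycling in Igfbp2-high cells (adjusted p = 1.1e-05), and the call by cycling was lost when cells were thinned to 3500 UMIs. Its promoter (chr4:24897833-24898132, plus strand, GRCm38.p6) is shown as that of the member with the largest rise by Igfbp2, with its NRF1 match in capitals.
Ndufaf4: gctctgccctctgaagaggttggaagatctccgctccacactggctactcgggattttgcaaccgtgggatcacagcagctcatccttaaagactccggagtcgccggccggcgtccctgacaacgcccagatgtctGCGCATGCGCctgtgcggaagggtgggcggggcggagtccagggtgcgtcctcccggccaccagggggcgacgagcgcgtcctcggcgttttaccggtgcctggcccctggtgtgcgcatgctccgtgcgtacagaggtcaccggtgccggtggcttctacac
Ndufaf2, a complex I assembly factor related to a complex I subunit, was at 99.1, 112 and 104 CPM in Igfbp2-high cycling cells, against 62.3, 68.3 and 64.9 CPM in Igfbp2-high non-cycling cells (log2 change 0.68 ± 0.10, adjusted p = 5.17e-05). Sdhaf4, which acts on the flavinated Sdha subunit, was at 60.0, 60.2 and 58.3 CPM in Igfbp2-high non-cycling cells, against 84.1, 88.6 and 97.5 CPM in Igfbp2-low non-cycling cells (log2 change -0.60, adjusted p = 4.44e-06). Atp5sl, despite its symbol a factor for the membrane arm of complex I by its human counterpart, was at 7.64, 8.11 and 6.70 CPM against 11.3, 12.2 and 12.2 CPM in these classes (log2 change -0.66, adjusted p = 0.000578).

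Among nuclear genes of the remaining comparisons, 17 rose and 23 fell by Igfbp2 in cycling cells and 14 rose and 16 fell by cycling in Igfbp2-low cells. By Igfbp2 these were 18.3% and 24.7%, beside 25.7% and 19.7% of all genes. By cycling they were 15.1% and 17.2%, near the 16.9% and 15.6% of all genes. Without rod-rich cells the 17 became 7, beside 2786 of 13718 higher over all genes. Within 6000 to 14000 UMIs the 14 and 16 each became 1, beside 396 and 213 of 11253 over all genes. The difference between the cycling changes of Igfbp2-high and Igfbp2-low cells was tested as an interaction, which called 4 nuclear members higher and 6 lower and no mt- member, beside 7.02% and 7.06% of all genes; an unadjusted p under 0.05 gave 0 mt- members on either side, and DESeq2 called 3 of them lower. Cox6b2 and Sdha differed upward. Cox6b2 had a log2 change with cycling of 0.10 in Igfbp2-high cells and -0.66 in Igfbp2-low cells, a difference of 0.76 ± 0.12 (adjusted p = 0.00106). Sdha had 0.15 and -0.37, a difference of 0.52 (adjusted p = 0.00421). Ndufv3 differed downward, with -0.53 in Igfbp2-high cells and -0.08 in Igfbp2-low cells (difference -0.46, adjusted p = 0.00566). Cox7a1 had changes of -1.13 and -1.15, with a difference of 0.02 that did not pass the test.

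Other mitochondrial genes, in lists outside the rule, were compared in the same fit. Of 26 protein import genes, 20 rose and 0 fell by Igfbp2 in non-cycling cells, with a median log2 change of 0.54 beside -0.05 for all genes, and 16 rose and 4 fell by cycling in Igfbp2-high cells. An unadjusted p under 0.05 and DESeq2 also gave 0 import genes lower by Igfbp2. Hspe1, the co-chaperonin that folds imported proteins, was at 1164, 1296 and 1376 CPM in Igfbp2-high non-cycling cells, against 362, 487 and 456 CPM in Igfbp2-low non-cycling cells (log2 change 1.56 ± 0.08, adjusted p = 1.22e-09). Timm50, a receptor of the inner membrane translocase, was at 118, 121 and 114 CPM in Igfbp2-high cycling cells, against 62.4, 51.2 and 51.7 CPM in Igfbp2-high non-cycling cells (log2 change 1.09 ± 0.08, adjusted p = 1.41e-07). Of 29 genes for mitochondrial DNA replication, transcription and RNA stability, 10 rose and 6 fell by Igfbp2, and 15 rose and 1 fell by cycling. All genes gave 30.1% higher and 32.3% lower by Igfbp2 and 25.0% and 24.2% by cycling. Slirp, which stabilises mitochondrial mRNAs, rose by 0.21 with Igfbp2, while Tfb1m, the methyltransferase of mitochondrial small ribosomal RNA, rose by 0.83 with cycling; within 6000 to 14000 UMIs the 16 import genes became 10, and the 15 and 10 of this list became 5 and 4. Over all genes in that window, 2106 were higher by cycling and 2913 by Igfbp2, of 11253.

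Against the same shares of all genes (30.1% higher and 32.3% lower by Igfbp2, 25.0% and 24.2% by cycling), assembly factors outside the rule counted 15 of 37 higher and 8 lower by Igfbp2, and 10 each way by cycling. The cycling counts were near the shares of all genes. Coa6, which delivers copper to complex IV, was at 179, 179 and 208 CPM in Igfbp2-high non-cycling cells, against 53.0, 53.1 and 58.0 CPM in Igfbp2-low non-cycling cells (log2 change 1.78 ± 0.08, adjusted p = 2.08e-10). Cmc2, another complex IV factor, was at 150.4, 159.5 and 170.6 CPM in Igfbp2-high cycling cells, against 40.0, 40.8 and 47.2 CPM in Igfbp2-high non-cycling cells (log2 change 1.91 ± 0.12, adjusted p = 2.05e-08). Among 13 genes for cytochrome c, cristae and carriers, 7 rose and 3 fell by Igfbp2 and 5 rose and 3 fell by cycling. Chchd10, a cristae protein, was at 203, 174 and 164 CPM in Igfbp2-high non-cycling cells, against 551, 767 and 654 CPM in Igfbp2-low non-cycling cells (log2 change -1.85 ± 0.11, adjusted p = 6.49e-09). Of 25 genes of the tricarboxylic acid cycle and pyruvate dehydrogenase, 13 rose and 5 fell by Igfbp2, and 12 rose and 3 fell by cycling. Pdk2, a kinase that switches pyruvate dehydrogenase off, fell with cycling in Igfbp2-high cells (log2 change -1.07, adjusted p = 4.71e-08), and Mdh2, malate dehydrogenase, rose by Igfbp2 (0.47). The 15 regulators of mitochondrial biogenesis gave 2 higher and 4 lower by Igfbp2, and 7 higher and 3 lower by cycling. Nrf1, the factor whose motif was searched above, was at 33.5, 29.7 and 33.9 CPM in Igfbp2-high cycling cells, against 14.6, 12.8 and 14.2 CPM in Igfbp2-high non-cycling cells (log2 change 1.22 ± 0.08, adjusted p = 2.78e-08), and its change by Igfbp2 in non-cycling cells was -0.04. The largest changes by Igfbp2 in 3 lists belonged to low-count genes, with log2 changes of -1.84 for Mterf1b, -1.90 for Perm1 and -2.21 for Pdk4.

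**Figure D5:**
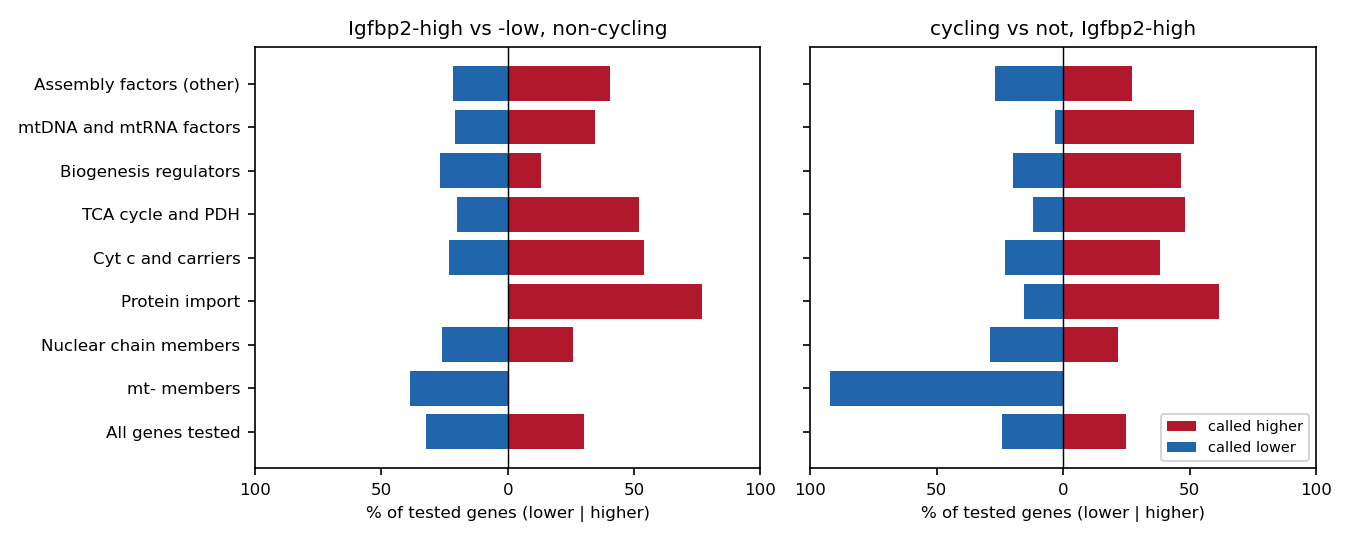
Share of tested genes called higher (right of 0) and lower (left of 0) in each list of mitochondrial genes and among all genes tested, by Igfbp2 in non-cycling cells (left panel) and by cycling in Igfbp2-high cells (right panel). The import list has 20 of 26 genes higher by Igfbp2 and the mt- genes 12 of 13 lower by cycling, while the nuclear respiratory chain genes are close to all genes.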

How the data were processed

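Retinal tdTomato+ cells from 3 runs of the 10X Chromium 3′ v2 assay were measured. The authors deposited a table of raw UMI counts per gene and cell (24695 cells) and a log table, which holds the natural log of 1 plus counts per 10000 UMIs for 13511 of these cells (tested to within 5.00e-07). Per the submitters' processing notes, Cell Ranger, Seurat 2.3.4 and mm10 were used. The cells the authors kept served only as an alternative.

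The filter kept cells of 500 or more genes in which mt- genes gave no more than 20% of UMIs (24672; 7670, 8802 and 8223 cells were deposited per run, with 94858762, 122888236 and 97032672 UMIs). Doublets were kept and no caller was run. The runs shared 83 to 108 cell barcodes per pair. Counts were summed per run and class, filtered with filterByExpr and tested in edgeR 4.0.16 (limma 3.58.1, R 4.3.3) with the quasi-likelihood test, TMM scaling and the run as a block; the 5 class-defining genes were dropped after scaling. SE was taken as the absolute log2 change over the square root of F. Same-run deviations correlated at 0.378 to 0.827 over 18 pairs, and the classes of a run share its library. Alternatives included DESeq2 1.42.0, thinning to 3500 UMIs, a window of 6000 to 14000 UMIs; separately, leaving out 511 cells with markers of other types (at least 3 markers of one type with at least 2 UMIs each), and, chosen after seeing the data, leaving out rod-rich cells (at least 8 rod marker UMIs per 10000). On simulated counts with 2-fold changes, edgeR recovered 81.8% by Igfbp2 in non-cycling cells and 87.6% by cycling in Igfbp2-high cells. It recovered 65.3% by Igfbp2 in cycling cells and 62.6% by cycling in Igfbp2-low cells. Of 1.5-fold changes it recovered 71.1%, 71.4%, 31.3% and 41.7% in the same order. The simulation changed only 200 genes and gave all genes the same spread. In the data, 4316 of 14353 genes were higher and 4631 lower by Igfbp2 in non-cycling cells, so recovery there may differ.

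The members and lists were chosen with earlier results of these data known. All mt- genes were named, with the 2 highest and the 2 most changed nuclear genes per complex (at least 50 CPM) and the isoform sets; Ndufaf4, Cox5a, Ndufab1 and Atp5sl were named after their values were seen, as were some further members given by their change alone. Positions were matched for 106 of 107 members in GENCODE M21, and promoters come from RefSeq (GRCm38.p6). Counts cover sampling error only, and genes with near-identical copies are uncertain. The values of 1 member are not reported here.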

Additional observations from a re-analysis of the deposited data

Results flagged for a closer look

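For 7 named members the cycling change differed between Igfbp2-high and Igfbp2-low cells, by edgeR's test of that difference (Igfbp2-high minus Igfbp2-low, log2). Most of them had been named for a large change in a comparison that enters this difference, so the choice of genes was not independent of the test. Of all nuclear members it called 4.3% higher and 6.45% lower, under the 7.02% and 7.06% of all genes. Cox6b2 (0.76), Sdha (0.52) and Cox7a2l (0.30) had a higher change in Igfbp2-high cells. Ndufv3 (-0.46), Atp5g1 (-0.44), Uqcrq (-0.38) and Atp5e (-0.30) had a lower one. Atp5g1 had log2 changes with cycling of -0.08 in Igfbp2-high cells and 0.35 in Igfbp2-low cells, and Uqcrq -0.13 and 0.25. Microglial markers were at 300 to 5194 CPM in Igfbp2-low cycling cells, against 48.0 to 195 CPM in Igfbp2-low non-cycling cells, and their part in these differences was not tested. Without cells that held markers of other types, 14 nuclear members passed this test, beside 532 higher and 685 lower of 13999 over all genes. Within 6000 to 14000 UMIs 3 did, beside 282 higher and 559 lower of 11253.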

How the results depend on the processing

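Of 3388 values of named members under 17 alternatives, 2980 kept their side of the threshold, 282 lost a call, 114 gained one and 12 reversed. A change of sign counted as reversed only where the gene was called with the settings of the Results or with the alternative. The 2980 thus include values called in neither, whatever their sign. The reversed log2 changes were 0.0752 for Ndufa4l2 by Igfbp2 in non-cycling cells within 6000 to 14000 UMIs, and, by Igfbp2 in cycling cells, -0.33 for Sdha and -0.0485 for Sdhd in that window and -0.0198 for Atp5g2, 0.86 for Atp5sl, 0.27 for Sdhaf4, 0.22 for Sdhb, -0.0533 for Sdhd and -0.0875 for mt-Nd6 after thinning to 3500 UMIs. By cycling in Igfbp2-low cells they were -0.07 for Atp5b and -0.52 for Sdhb after thinning and -0.0116 for Ndufaf4 within the window. The causes were not tested, although thinning can also move a cycling cell into the non-cycling class.

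Counts of called members moved as follows. By Igfbp2 in non-cycling cells, 11 mt- genes were lower after thinning, and 37 nuclear genes were higher with DESeq2, 15 within the window and 13 without rod-rich cells. Over all genes, 4221 of 11784 were lower after thinning. Those higher were 4545 of 14353 with DESeq2, 2913 of 11253 within the window and 3767 of 13718 without rod-rich cells. By Igfbp2 in cycling cells, 10 mt- genes were lower without cells of other types, beside 2591 of 13999 over all genes. Nuclear genes higher were 11 with DESeq2 size factors, 3 after thinning, 4 in the authors' cells and 7 without rod-rich cells. Over all genes these were 3306 of 14353, 500 of 11784, 2213 of 13318 and 2786 of 13718. Nuclear genes lower were 13 without a low-count filter and 4 after thinning, beside 2677 of 18472 and 374 of 11784. By cycling in Igfbp2-high cells, nuclear genes higher were 13 with DESeq2 size factors and with DESeq2, 7 after thinning and in the authors' cells, 10 within the window and 11 without cells of other types. Over all genes these were 3130 and 2959 of 14353, 1492 of 11784, 2933 of 13318, 2106 of 11253 and 3275 of 13999. Nuclear genes lower were 16 without a filter and 44 with DESeq2 and in the authors' cells. Over all genes these were 2938 of 18472, 3828 of 14353 and 3343 of 13318. By cycling in Igfbp2-low cells, the window left 1 mt- gene lower, 1 nuclear gene higher and 1 lower, beside 396 higher and 213 lower of 11253 over all genes. Nuclear genes higher were 9 in the authors' cells and 6 with Igfbp2 limits of 10 and 0, beside 1798 of 13318 and 1507 of 14155. Nuclear genes lower were 31 after thinning, beside 1540 of 11784. The interaction called 25 nuclear genes with DESeq2, 3 within the window and 4 without rod-rich cells. Over all genes it called 614 higher and 1681 lower of 14353, 282 and 559 of 11253, and 741 and 778 of 13718. Without the replicate block for the run, 14 nuclear genes were higher and 14 lower by Igfbp2 in non-cycling cells, beside 3445 and 3457 of 14353 over all genes. By Igfbp2 in cycling cells 3 mt- genes were lower, 9 nuclear higher and 11 lower, beside 3114 higher and 2471 lower. By cycling in Igfbp2-high cells 7 mt- genes were lower, 6 nuclear higher and 15 lower, beside 2534 and 2230. By cycling in Igfbp2-low cells 5 mt- genes were lower and 8 nuclear higher, beside 1567 lower and 1967 higher. The interaction called 1, beside 320 higher and 431 lower.

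Leaving out 1 run in turn gave 5 to 5 mt- lower, 18 to 33 nuclear higher and 15 to 19 lower by Igfbp2 in non-cycling cells; 4 to 10, 3 to 16 and 12 to 27 by Igfbp2 in cycling cells; 9 to 12, 7 to 11 and 16 to 34 by cycling in Igfbp2-high cells; 8 to 11, 8 to 11 and 9 to 15 by cycling in Igfbp2-low cells; and 1 to 8 for the interaction. Over all genes, with 14362 to 14546 tested, 3746 to 4136 were then higher and 3621 to 3699 lower by Igfbp2 in non-cycling cells. The ranges were 2524 to 3115 and 1985 to 2652 by Igfbp2 in cycling cells. They were 2588 to 2725 and 2339 to 3619 by cycling in Igfbp2-high cells, and 1891 to 1924 and 1382 to 1521 in Igfbp2-low cells. Shares of UMIs within the window were 3.81, 4.89 and 4.92% (mt-, Igfbp2-high cycling, Igfbp2-high non-cycling and Igfbp2-low cycling) and 3.21 and 3.37% (nuclear, Igfbp2-high cycling and non-cycling). The nuclear share of Igfbp2-high non-cycling cells, with an SD of 0.0106, ranged over 3.30% after thinning, 3.40% with stricter non-cycling cells, 3.41% in the authors' cells, 3.42% without cells of other types, 3.37% with the other Igfbp2 limits and 3.34% without rod-rich cells. Leaving out 1 run gave mt- shares of 3.07 to 3.28, 4.09 to 4.43, 3.95 to 4.28 and 5.0 to 5.51% and nuclear shares of 3.17 to 3.19, 3.38 to 3.39, 3.41 to 3.59 and 3.42 to 3.50% in Igfbp2-high cycling, Igfbp2-high non-cycling, Igfbp2-low cycling and Igfbp2-low non-cycling cells. Without the low-count filter the median log2 change of all genes by Igfbp2 in cycling cells moved to 0.18, against 0.05 with it. Igfbp2-low cycling cells, with 88 to 105 cells per run, limit the depth of every comparison that uses them.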

Other observations

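Cells between the Igfbp2 limits, which entered no comparison, numbered 1107, 1156 and 835 in runs 1, 2 and 3. They were not parted by cycling, so they are a mix set beside non-cycling classes. The mt- genes made up 5.10 ± 0.387% of their UMIs (mean ± SD, n = 3 runs), which lay between 4.32 ± 0.394% in Igfbp2-high non-cycling and 5.31 ± 0.542% in Igfbp2-low non-cycling cells, within 1 SD of the second. Their median depth was 8361 to 9113 UMIs. Cells were thinned to 3500 UMIs with their class kept from full depth. The median cell then held 109, 103 and 116 mt- UMIs in Igfbp2-high cycling cells and 137, 142 and 162 in Igfbp2-high non-cycling cells of runs 1, 2 and 3. It held 151, 153 and 160.5 in Igfbp2-low cycling cells and 181, 173 and 207 in Igfbp2-low non-cycling cells.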
